A study of Homo sapiens with 6 samples.

Results

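The 10 Krüppel-like factor genes KLF2, KLF3, KLF4, KLF5, KLF6, KLF7, KLF9, KLF10, KLF11 and KLF13 were examined among 18132 genes on Affymetrix PrimeView arrays. They were found as the probe sets whose platform annotation gives a single symbol that is one of these names, which gave 32 of 44988 named probe sets, with 2 to 5 per gene. A probe set is a group of short oligonucleotides read together as a single value for a transcript. RNA came from 3 samples of cells given a lentivirus with an shRNA against SHCBP1 and 3 samples of cells given a lentivirus with a control shRNA, with 1 array for each sample. The cell line is given as TPC-1 (papillary thyroid carcinoma) in the titles and characteristics, but as DLD1 (colorectal carcinoma) in the extraction text. The labels name no promoter for either hairpin, no further hairpin against SHCBP1 and no rescue, so an effect of losing SHCBP1 and an off-target effect of its hairpin cannot be told apart. They speak of independent samples without saying that these were separate cultures, so the p-values measure only how these samples vary, and that variation may be technical.

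Krüppel-like factors are transcription factors that bind GC-rich and CACCC sequences through zinc fingers near their C-terminus, and differ mainly in the regions before the fingers. KLF3 recruits the corepressor CtBP, KLF9, KLF10, KLF11 and KLF13 recruit SIN3A, and KLF2, KLF4, KLF5, KLF6 and KLF7 act largely as activators, although several of them can do both. In epithelia KLF4 is known for differentiation and cell cycle arrest and KLF5 for the proliferating compartment, while KLF6 was described as a tumour suppressor that responds early to injury.

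The deposited log2 values were centred, so that the median of the 6 arrays is 0 for every probe set. A value therefore says how an array stood relative to the others, and no level of expression is left to compare between genes. The markers of thyroid and intestine could not be used to check the cell line for the same reason. SHCBP1 itself was lower in the SHCBP1 shRNA arrays, with a log2 difference of -1.54 ± 0.06 (SE, n = 3 arrays per group). The poly-A controls, which are made to be spiked into RNA, were also not level: they differed by 0.43 ± 0.04 log2 (SE, SHCBP1 shRNA minus control shRNA). Scaling the arrays to them lowers every gene by that amount, so that the median of all genes moves to -0.41 and every rise smaller than 0.43 changes sign. The hybridization controls, added after labelling, differed by 0.085 ± 0.020 log2 (SE) and the 3′ minus 5′ signal of ACTB, a sign of RNA quality, by -0.077 ± 0.018 (SE), both with groups that did not overlap, while that of GAPDH differed by -0.0059 ± 0.016 (SE). Their part in the results was not tested. With no signal level left, it cannot be seen whether the poly-A controls were present in these samples. Each direction given below is relative to the bulk of the genes measured. For KLF13 the direction turns with spike-in scaling, for KLF6 the call is lost, and KLF2 and KLF7 are then called lower.

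The family split. KLF4 and KLF5 were lower in the SHCBP1 shRNA arrays by close to 1 log2 unit, KLF3, KLF9, KLF10 and KLF11 were lower by smaller amounts, KLF6 and KLF13 were higher, and KLF2 and KLF7 did not pass the test. In all, 8 of the 10 genes passed limma's moderated test at a Benjamini-Hochberg adjusted p under 0.05 over all genes, 2 higher and 6 lower. Over all genes the same test called 41% (22% higher and 19% lower). The median log2 difference was -0.17 for the 10 genes and 0.02 for all genes. Of the 10 genes, 2 were called with a size of at least 0.5 log2, against 8.21% of all genes. The 3 SHCBP1 shRNA values lay apart from the 3 control shRNA values for 9 of the 10 genes, and for 50% of all genes. The members were chosen with earlier results of these data known. These counts and medians therefore describe the 10 genes and do not test the family.

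**Figure D1:**
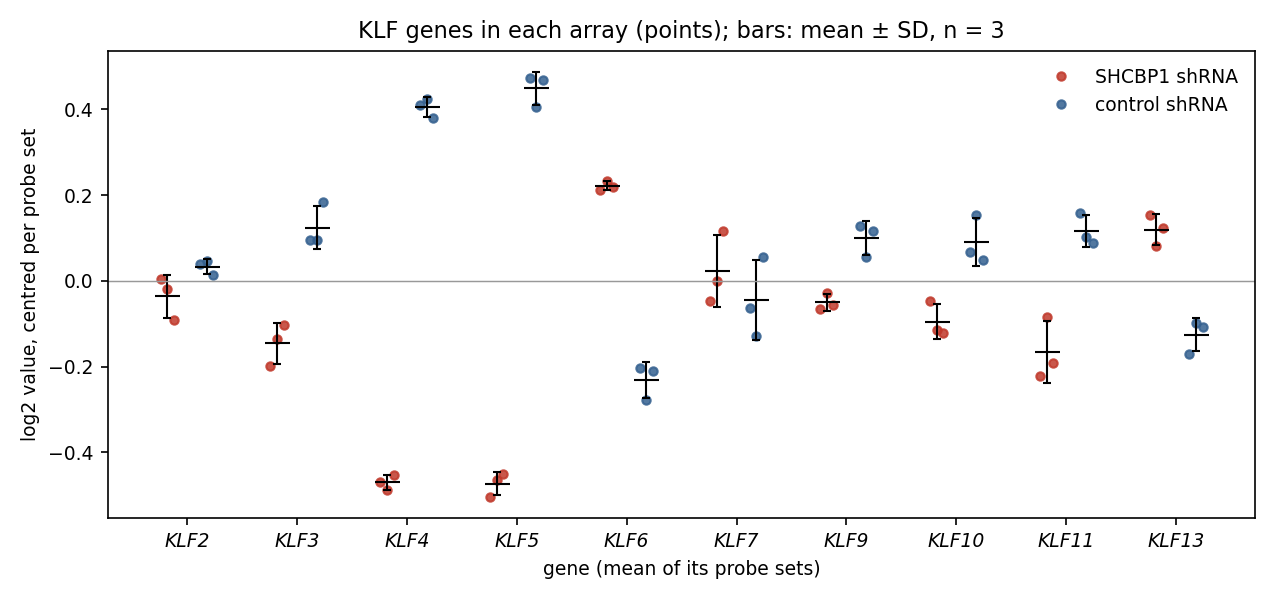
Centred log2 value (vertical axis) of each KLF gene (horizontal axis) in the 3 SHCBP1 shRNA arrays and the 3 control shRNA arrays, with mean ± SD. KLF4 and KLF5 show the widest gaps, with the SHCBP1 shRNA arrays below, KLF6 has the SHCBP1 shRNA arrays above, and the groups overlap only for KLF7.

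KLF5, a factor of proliferating epithelial cells, had values of -0.50, -0.46 and -0.45 in the SHCBP1 shRNA arrays, against 0.47, 0.41 and 0.47 in the control shRNA arrays. The groups lay far apart relative to their spread. KLF5 fell by 0.92 ± 0.04 on the log2 scale (SE, n = 3 per group, 95% interval -1.01 to -0.84), which is 1.89-fold, with an adjusted p of 1.82e-06 in limma's fit across all genes. Only 1.62% of all genes had a difference of this size or more in either direction. All 3 of its probe sets were called lower, with differences of -1.06, -0.88 and -0.83. The last 2 were designed on the same transcript accession (AK296900.1), so they are not separate views of the gene, and the last ends in _x_at, the ending Affymetrix gives to probes that may be shared with other genes.

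KLF4, known for differentiation and as a reprogramming factor, had values of -0.47, -0.49 and -0.45 in the SHCBP1 shRNA arrays, against 0.41, 0.42 and 0.38 in the control shRNA arrays. Neither group came near the other. KLF4 fell by 0.87 ± 0.03 on the log2 scale (SE, n = 3 per group, 95% interval -0.95 to -0.80), or 1.83-fold (limma, adjusted p = 1.58e-06). A difference as large was seen in 1.94% of all genes. Both of its probe sets, on accessions NM_004235.4 and U70663.1, were called lower, with differences of -0.93 and -0.82. The 95% intervals of the KLF4 and KLF5 differences overlapped, and the difference between the genes was not tested.

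KLF6, the injury-responsive factor, was the member with the largest rise. Its values were 0.21, 0.23 and 0.22 in the SHCBP1 shRNA arrays, against -0.20, -0.28 and -0.21 in the control shRNA arrays. The groups did not overlap, and the SHCBP1 shRNA values were the tighter of the groups (SD 0.011, against 0.041 in control shRNA). KLF6 rose by 0.45 ± 0.03 on the log2 scale (SE, n = 3 per group, 95% interval 0.37 to 0.53), or 1.37-fold (limma, adjusted p = 3.66e-05). Of its 5 probe sets 4 were called higher, by 0.23, 0.49, 0.62 and 0.72, and the fifth, on accession AK293259.1, had a difference of 0.21 with overlapping groups (adjusted p = 0.0813). With spike-in scaling the difference of KLF6 was 0.019 (limma, adjusted p = 0.721). This mean joined probe sets of both directions: those on CT002564 and NM_001300.4 were then called higher (0.29 and 0.18) and those on AK293259.1 and U51869.1 lower (-0.22 and -0.20).

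KLF2, a factor of quiescent endothelium and lymphocytes, had values of 0.0051, -0.02 and -0.092 in the SHCBP1 shRNA arrays, against 0.04, 0.045 and 0.013 in the control shRNA arrays. The 3 SHCBP1 shRNA values were the lower ones, but the gap between the groups was narrow. The log2 difference of -0.068 ± 0.037 (SE, n = 3 per group, 95% interval -0.16 to 0.019) did not pass limma's test (adjusted p = 0.2). Of its 2 probe sets the one on NM_016270.2 had a difference of -0.12 (adjusted p = 0.0805) and the one on BE967504 a difference of -0.015.

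KLF7, known for a part in the growth of sensory neurons, ran from -0.048 to 0.12 in the SHCBP1 shRNA arrays, against -0.13 to 0.056 in the control shRNA arrays. It was the only member whose groups overlapped. Its log2 difference of 0.068 ± 0.061 (SE, n = 3 per group, 95% interval -0.076 to 0.21) had the largest error of the 10 genes and did not pass limma's test (adjusted p = 0.442). None of its 4 probe sets was called, although 1 of them, on AK000969.1, came close to the threshold, with a difference of 0.22 (limma, adjusted p = 0.0504). With spike-in scaling that probe set was called lower (-0.21, limma adjusted p = 0.0226).

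Promoters of 4 of the activator genes are shown because they hold the members with the largest falls and the largest rise, and KLF2, which did not pass the test, for contrast. They come from RefSeq (build GRCh38.p14) and cover 250 bases before to 50 bases after an annotated start, read 5′ to 3′ on the gene's strand. Entries were found for 8 of the 10 genes, 13 entries in all, and KLF5 has 2. KLF3 and KLF10 are the genes that were not matched. Capitals mark the GC box (GGGCGG or CCGCCC, a classic site of SP and KLF factors), the CACCC element (CACCC or GGGTG) and the MEF2 motif (CTANNNNTAG, which reads the same on both strands). No motif contains another, but neighbouring copies can share letters.
KLF5, upstream start (chr13:73054726-73055025, plus strand): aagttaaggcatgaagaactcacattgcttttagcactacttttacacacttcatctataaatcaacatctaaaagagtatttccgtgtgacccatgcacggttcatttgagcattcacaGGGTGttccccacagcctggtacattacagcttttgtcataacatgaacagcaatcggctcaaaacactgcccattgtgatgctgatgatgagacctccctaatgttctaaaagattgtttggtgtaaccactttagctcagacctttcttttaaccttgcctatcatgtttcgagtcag
KLF5, downstream start (chr13:73058755-73059054, plus strand): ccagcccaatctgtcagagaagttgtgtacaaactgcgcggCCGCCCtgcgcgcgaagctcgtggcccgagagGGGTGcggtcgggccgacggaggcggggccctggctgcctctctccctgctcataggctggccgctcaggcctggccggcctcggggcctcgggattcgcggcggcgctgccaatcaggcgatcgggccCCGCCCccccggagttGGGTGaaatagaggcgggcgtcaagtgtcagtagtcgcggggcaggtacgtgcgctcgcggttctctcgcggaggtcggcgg
KLF4 (chr9:107489720-107490019, minus strand): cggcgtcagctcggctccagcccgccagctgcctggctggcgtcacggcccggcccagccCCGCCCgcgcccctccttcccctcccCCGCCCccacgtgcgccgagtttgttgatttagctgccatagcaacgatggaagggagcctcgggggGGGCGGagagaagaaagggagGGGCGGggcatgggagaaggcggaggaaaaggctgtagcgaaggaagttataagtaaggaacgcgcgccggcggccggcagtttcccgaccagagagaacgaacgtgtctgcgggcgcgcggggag
KLF6 (chr10:3785160-3785459, minus strand): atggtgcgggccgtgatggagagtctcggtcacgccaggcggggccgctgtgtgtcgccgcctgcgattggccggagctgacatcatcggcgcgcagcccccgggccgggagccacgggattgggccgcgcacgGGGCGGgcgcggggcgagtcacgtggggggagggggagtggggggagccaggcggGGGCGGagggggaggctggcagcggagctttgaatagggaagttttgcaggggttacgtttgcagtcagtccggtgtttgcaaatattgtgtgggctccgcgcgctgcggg
KLF2 (chr19:16324576-16324875, plus strand): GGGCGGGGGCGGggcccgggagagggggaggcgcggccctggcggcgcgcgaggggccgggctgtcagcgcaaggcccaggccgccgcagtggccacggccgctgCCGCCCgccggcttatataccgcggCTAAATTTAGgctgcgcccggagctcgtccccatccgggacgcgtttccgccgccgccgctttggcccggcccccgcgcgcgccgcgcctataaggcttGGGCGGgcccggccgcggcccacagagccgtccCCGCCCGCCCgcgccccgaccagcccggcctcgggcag

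The KLF4 window held 4 GC boxes and 0 CACCC elements, and the KLF6 window 2 GC boxes and 0 CACCC elements. The downstream start of KLF5 had 2 GC boxes and 2 CACCC elements at a GC content of 71.3%, and its upstream start had 0 GC boxes and 1 CACCC element at a GC content of 40.7%. The KLF2 window had the highest GC content of the 13 member entries, 80.7%, with 6 GC boxes and 1 match to the MEF2 motif. Over all 35116 promoter entries of the same length, 45% held a GC box, 59.9% a CACCC element and 2.73% the MEF2 motif, and the median GC content was 58.7%. Among the 13 entries of the family, 8 held a GC box, 7 a CACCC element and 2 the MEF2 motif, the other being a KLF11 entry. These are matches of letters only, and a link of the motifs to the expression changes was not tested.

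KLF3, the repressor that works through CtBP, showed the widest disagreement between probe sets. As the mean of 5 probe sets its values were -0.20, -0.13 and -0.10 in the SHCBP1 shRNA arrays, against 0.094, 0.096 and 0.18 in the control shRNA arrays. This mean was called lower, with a log2 difference of -0.27 ± 0.04 (SE, n = 3 per group, 95% interval -0.37 to -0.17, limma adjusted p = 0.00143). The call was lost when the median of the probe sets replaced the mean (-0.13, limma adjusted p = 0.177) and when only probe sets with a plain _at ending were used (-0.12, adjusted p = 0.235).

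The probe sets of KLF3 lay on both sides of that mean. The one on BI254314 had values of -0.45, -0.40 and -0.55 in the SHCBP1 shRNA arrays, against 0.40, 0.41 and 0.46 in the control shRNA arrays, a difference of -0.89 that is as large as that of KLF4. The BI254314 probe set ends in _s_at, the ending for probes shared between transcripts. The one on BC030662.1 fell by 0.69 on the log2 scale. In the opposite direction, the one on BC051687.1 had values of 0.11, 0.074 and 0.36 in the SHCBP1 shRNA arrays, against -0.23, -0.074 and -0.16 in the control shRNA arrays, and was called higher by 0.33 (limma over all probe sets, adjusted p = 0.0146). The other two, on NM_016531.5 and AB024523.1, had differences of -0.12 and 0.014 and overlapping groups. The span between the lowest and highest probe set was 1.22 log2 units. Of the 11734 genes with more than 1 probe set, 1.17% had a span this wide, and their median span was 0.18. KLF3 has 5 probe sets, and a span can widen with their number. It was the only 1 of the 10 members with probe sets called in both directions, as were 482 of those 11734 genes. Which transcripts each probe set reads was not tested, and the value of KLF3 as a gene is uncertain.

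**Figure D2:**
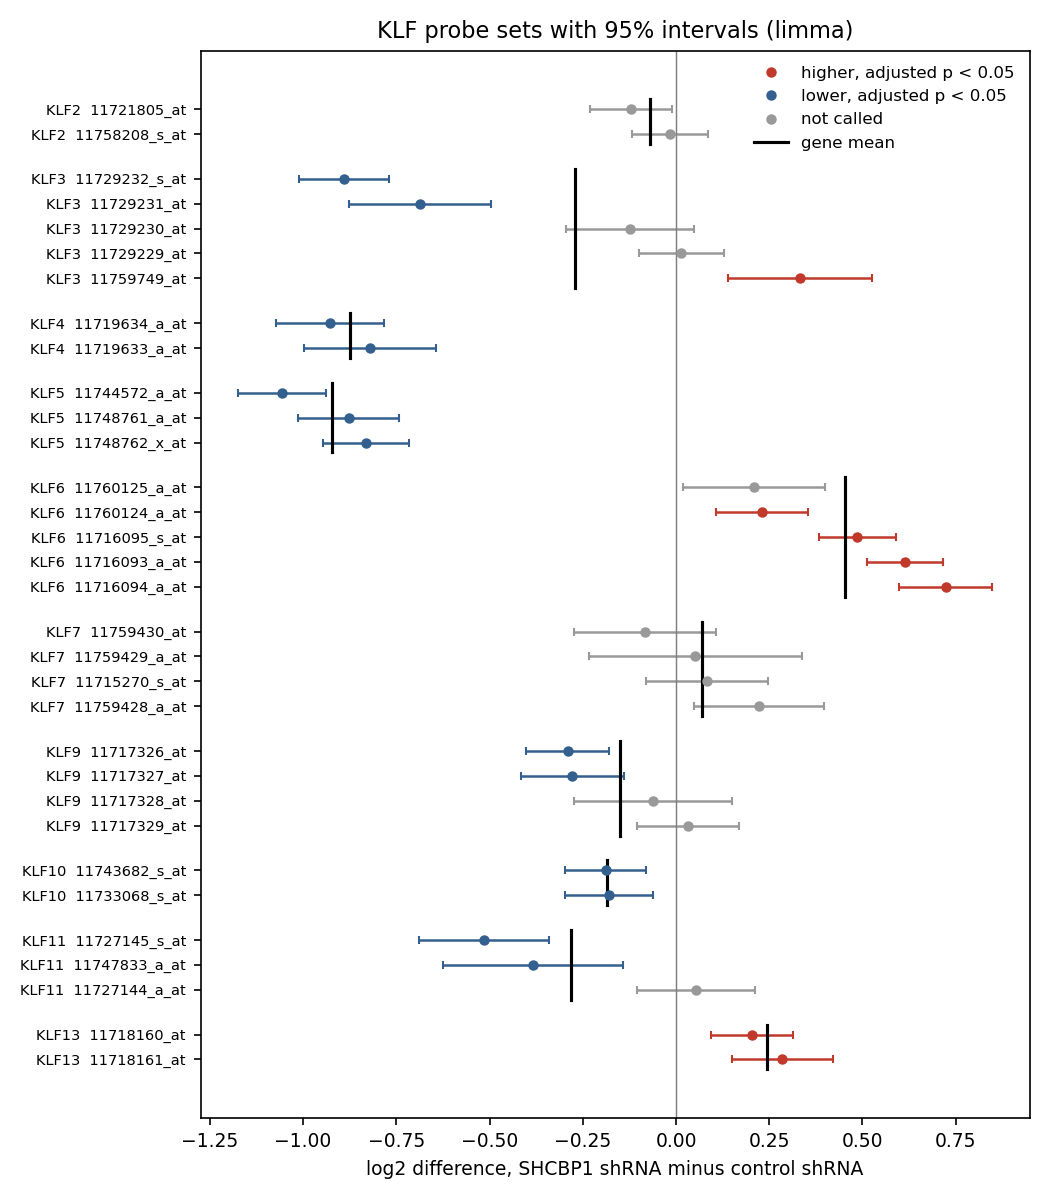
Log2 difference (SHCBP1 shRNA minus control shRNA, horizontal axis) of each of the 32 KLF probe sets (rows) with its 95% interval from limma, and the mean of each gene as a black line. The probe sets of KLF4, KLF5 and KLF10 lie on one side of 0 and close to their mean, while those of KLF3 run from -0.89 to 0.33.

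Of the members that recruit SIN3A, KLF11, a TGF-beta-inducible factor, had values of -0.22, -0.085 and -0.19 in the SHCBP1 shRNA arrays, against 0.16, 0.10 and 0.088 in the control shRNA arrays. The second SHCBP1 shRNA array was the least shifted, but the groups did not overlap. KLF11 fell by 0.28 ± 0.05 on the log2 scale (SE, n = 3 per group, limma adjusted p = 0.00172). Its probe sets on NM_003597.4 and AK302880.1 fell by 0.51 and 0.38, and the one on BC074922.2 had a difference of 0.054 with overlapping groups. The NM_003597.4 probe set also ends in _s_at.

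KLF10, the other TGF-beta-inducible factor, had values of -0.048, -0.12 and -0.12 in the SHCBP1 shRNA arrays, against 0.068, 0.15 and 0.048 in the control shRNA arrays. It fell by 0.18 ± 0.04 on the log2 scale (SE, n = 3 per group, limma adjusted p = 0.00928). Its 2 probe sets gave -0.19 and -0.18, the smallest span in the family, and both end in _s_at, the ending for probes shared between transcripts.

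KLF9, which glucocorticoids and thyroid hormone are known to induce, had values of -0.065, -0.028 and -0.057 in the SHCBP1 shRNA arrays, against 0.13, 0.056 and 0.12 in the control shRNA arrays. It fell by 0.15 ± 0.04 on the log2 scale (SE, n = 3 per group, limma adjusted p = 0.0106). This was the smallest called difference of the family, and 39.7% of all genes differed by as much. The fall came from the probe sets on NM_001206.2 and CD518693, at -0.29 and -0.28, whereas those on BF438302 and BC074879.2 gave -0.063 and 0.033 and were not called. The call was lost with plain _at probe sets alone (limma, adjusted p = 0.0678). The difference was the same there, since all 4 have that ending. Its moderated SE, which limma draws partly from the other genes fitted, was 0.050 there against 0.035 with all probe sets.

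KLF13, an activator of chemokine expression in T cells that can also repress, had values of 0.15, 0.081 and 0.12 in the SHCBP1 shRNA arrays, against -0.17, -0.099 and -0.11 in the control shRNA arrays. Here the SHCBP1 shRNA arrays were the higher ones. KLF13 rose by 0.24 ± 0.04 on the log2 scale (SE, n = 3 per group, limma adjusted p = 0.00128), and both of its probe sets were called higher, by 0.20 and 0.28. With spike-in scaling its difference was -0.19 (limma, adjusted p = 0.0137).

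Counted one by one, 20 of the 32 probe sets were called, 7 higher and 13 lower, against 38.5% of all named probe sets (20.3% higher and 18.2% lower). Those with a difference of at least 0.5 log2 numbered 10, which belong to KLF3, KLF4, KLF5, KLF6 and KLF11, and the share over all probe sets was 11%. The groups lay apart for 22 of the 32, against 48.4% of all named probe sets. These counts are descriptive too, since the members were chosen with earlier results of these data known. In KLF4, KLF5, KLF10 and KLF13 every probe set was called in the same direction as the gene. In KLF9 and KLF11 some probe sets moved and others did not pass.

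**Figure D3:**
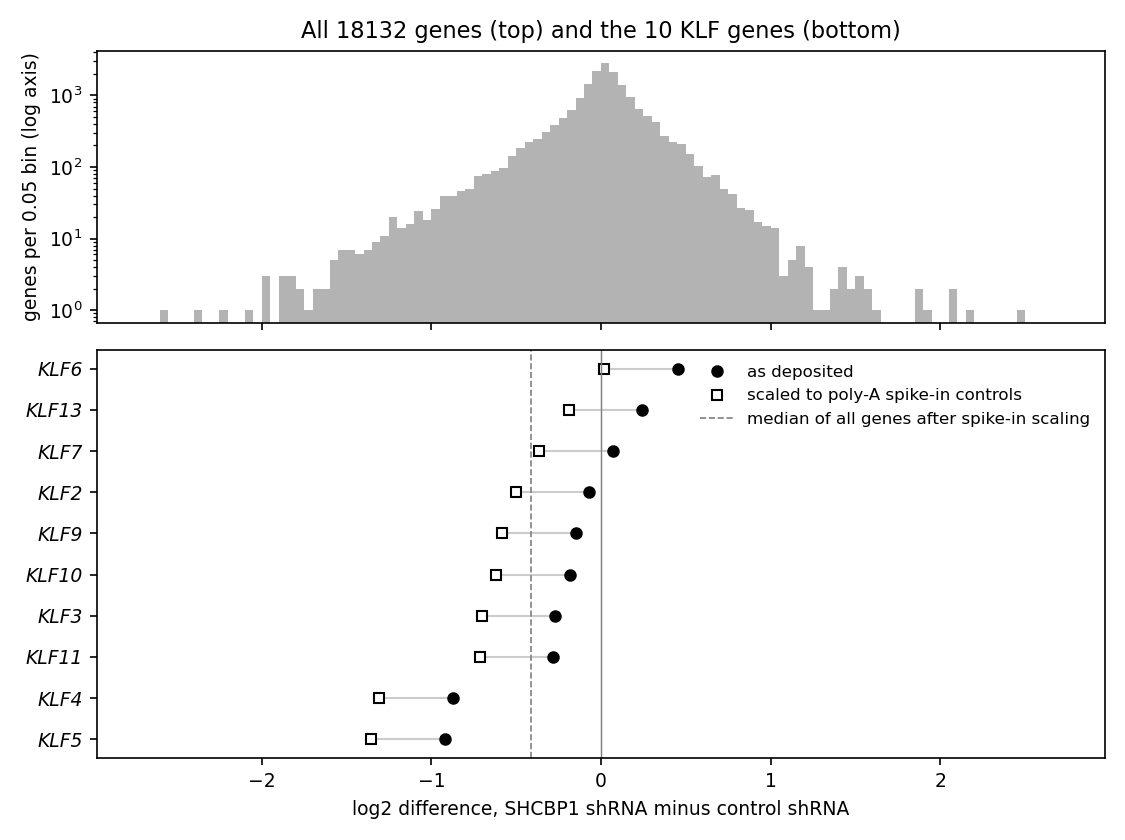
Top, number of genes (log axis) by log2 difference (SHCBP1 shRNA minus control shRNA, bins of 0.05) over all 18132 genes. Bottom, the difference of each KLF gene as deposited (filled circles) and after spike-in scaling (open squares), with the median of all genes after that scaling at -0.41 (dashed line). After scaling KLF4 and KLF5 lie furthest below that line, and KLF6 lies at 0.019.

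The counts for related genes below are to be read against the 41% of all genes that were called, 22% higher and 19% lower. The lists, like the members, were chosen with earlier results of these data known. Spike-in scaling moved the count by over 1.5 times in 8 of the 12 lists, and so did the use of plain _at probe sets alone, where fewer genes were tested, in 9. Among KLF genes outside the 10, 1 of 7 was called, against 41% of all genes, and 7 of 7 with spike-in scaling. KLF16, another SIN3A-binding repressor, fell by 0.39 ± 0.04 on the log2 scale (SE, n = 3 per group, limma adjusted p = 0.000271). Its values were -0.13, -0.25 and -0.27 in the SHCBP1 shRNA arrays, against 0.19, 0.15 and 0.18 in the control shRNA arrays. Of 9 genes of the related SP factors, several of which bind GC boxes, 2 were called (against 41% of all genes): SP1 fell by 0.21 and SP7, a bone factor, rose by 0.16. The count was 4 with repeated quantile normalization, 9 with spike-in scaling and 0 with plain _at probe sets, where SP1 was not called (limma, adjusted p = 0.0654). The 3 probe sets of SP1 ran from -0.48 to 0.11. The call of SP7 was lost without SHCBP1 shRNA replicate 2 (limma, adjusted p = 0.0548) or replicate 3 (adjusted p = 0.0585) and without control shRNA replicate 1 (adjusted p = 0.0674) or replicate 3 (adjusted p = 0.0635), and its direction turned with spike-in scaling (-0.27). The median log2 difference was 0.054 for the 7 KLF genes and -0.064 for the SP genes.

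Of 11 corepressors and coactivators that Krüppel-like factors use, 3 were called higher and 4 lower (against 22% and 19% of all genes), with a median log2 difference of 0.0077. CTBP2, the CtBP corepressor that KLF3 binds, had the largest difference of any listed gene. Its values were -0.68, -0.63 and -0.63 in the SHCBP1 shRNA arrays, against 0.65, 0.66 and 0.65 in the control shRNA arrays. CTBP2 fell by 1.30 ± 0.03 on the log2 scale (SE, n = 3 per group, limma adjusted p = 4.2e-07), and its 7 probe sets ran from -1.42 to -1.25. Its paralog CTBP1, given here after its values were seen, had a difference of 0.0077 ± 0.032 (SE) and did not pass limma's test (adjusted p = 0.88). SIN3A, the scaffold used by KLF9, KLF10, KLF11 and KLF13, fell by 0.45 ± 0.03 on the log2 scale (SE), and the histone deacetylase gene HDAC3 rose by 0.41, a rise that was not seen with spike-in scaling (-0.019).

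The ubiquitin ligases known to act on Krüppel-like factors had 3 of 9 called higher and 4 lower (against 22% and 19% of all genes), with a median of -0.10. ITCH, which acts on KLF10, fell by 0.76 on the log2 scale, although its 4 probe sets ran from -1.32 to -0.27. FBXO32, described for KLF4, fell by 0.57 and WWP1, which marks KLF2 and KLF5 for degradation, by 0.52. The probe sets of WWP1 ran from -0.77 to -0.10. Arrays measure RNA, so the protein levels of the factors are not known from these data.

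In the MEK5-ERK5-MEF2 pathway, a known inducer of KLF2 and KLF4, 4 of 7 genes were called higher and 2 lower (against 22% and 19% of all genes), with a median of 0.20. The upstream kinase genes MAP3K3 and MAP3K2 rose by 0.73 and 0.48 on the log2 scale. The probe sets of MAP3K2 ran from 0.23 to 0.78. The genes of MEK5 and ERK5 themselves are given here after their values were seen. MAP2K5, the MEK5 gene, was not called (-0.037, limma adjusted p = 0.453). MAPK7, the ERK5 gene, was called higher by 0.20 (limma, adjusted p = 0.0302), also less than the spike-in shift of 0.43. MEF2A, a transcription factor at the end of the pathway, fell by 0.57, with probe sets from -0.94 to -0.13. Its paralogs, given here after their values were seen, were called in both directions. MEF2D fell by 0.25 and MEF2C rose by 0.31, less than the spike-in shift of 0.43. With spike-in scaling the rise of MAP3K2 was no longer called (0.047, limma adjusted p = 0.413).

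Genes known as targets of the factors moved in both directions. Of 16 tested epithelial and growth targets of KLF4 and KLF5, 3 were called higher and 4 lower, with a median of 0.029. That is 7 of 16, near the 41% of all genes. KRT19, a simple-epithelial keratin gene, fell by 0.56 on the log2 scale and CDKN1A, the p21 cell cycle inhibitor gene, by 0.55, while ODC1 rose by 0.49. A link of these changes to KLF4 or KLF5 was not tested. With spike-in scaling ODC1 was not called (0.059, limma adjusted p = 0.309). The count of 7 was 14 with spike-in scaling, and 4 without SHCBP1 shRNA replicate 2, without SHCBP1 shRNA replicate 3 or without control shRNA replicate 1. Among 7 targets of KLF6, 1 was called higher and 3 lower, against 22% and 19% of all genes (median -0.012): the protease gene PLAU and the receptor gene TGFBR1 fell by 0.47 each, and TGFBR2 rose by 0.44, a rise not called with spike-in scaling (0.01, limma adjusted p = 0.863). The probe sets of TGFBR1 ran from -0.98 to -0.20 and those of PLAU from -0.51 to -0.45. In other cell types KLF6 is known to activate PLAU, TGFBR1 and TGFBR2.

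Of 9 tested targets of KLF3, KLF10, KLF11 and KLF13, 2 were called higher and 2 lower (median -0.019), near the 22% and 19% of all genes, and 8 were called with spike-in scaling. BCL2L1 fell by 0.62 on the log2 scale and TGFB1 by 0.59. SMAD7, an inhibitor of TGF-beta signalling, rose by 0.42, and with spike-in scaling stood at -0.013. Targets of KLF2 had 1 of 5 called (against 41% of all genes, and 4 with spike-in scaling), with CCR7 higher by 0.26. That call was lost without SHCBP1 shRNA replicate 1 (limma, adjusted p = 0.0594) or replicate 2 (adjusted p = 0.0605) and without control shRNA replicate 3 (adjusted p = 0.0579), and the difference was -0.17 with spike-in scaling. The list of glucocorticoid-induced genes also holds the receptor gene NR3C1, which was not called. Of its 7 genes 2 were called, both lower, against 19% of all genes (median 0.057), and 7 were called with spike-in scaling. SGK1, a kinase gene, fell by 0.73 and TSC22D3, which encodes GILZ, by 0.55. The probe sets of TSC22D3 ran from -0.74 to -0.23.

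Among markers of the cell types that the labels name, 1 of 8 thyroid genes was called (against 41% of all genes, and 8 with spike-in scaling), FOXE1, higher by 0.24 on the log2 scale, and with spike-in scaling at -0.19. Of 7 intestinal genes 2 were called higher and 1 lower (against 22% and 19% of all genes, and 7 called with spike-in scaling). KRT20, a keratin gene of differentiated gut epithelium, fell by 1.09, while LGR5, a stem cell receptor gene, rose by 0.58 and CDX2 rose by 0.12. The values of FOXE1, KRT20 and CDX2 each rest on 1 probe set. The other 4 intestinal genes, CDX1, VIL1, GUCY2C and CDH17, were not called in the values as deposited. CDX2 stood at -0.32 with spike-in scaling and was not called without SHCBP1 shRNA replicate 2 or 3 or control shRNA replicate 1 (limma, adjusted p of 0.0507, 0.0607 and 0.0653). The medians were 0.02 for the thyroid and 0.041 for the intestinal genes, and their part in the KLF4 and KLF5 falls was not tested.

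**Figure D4:**
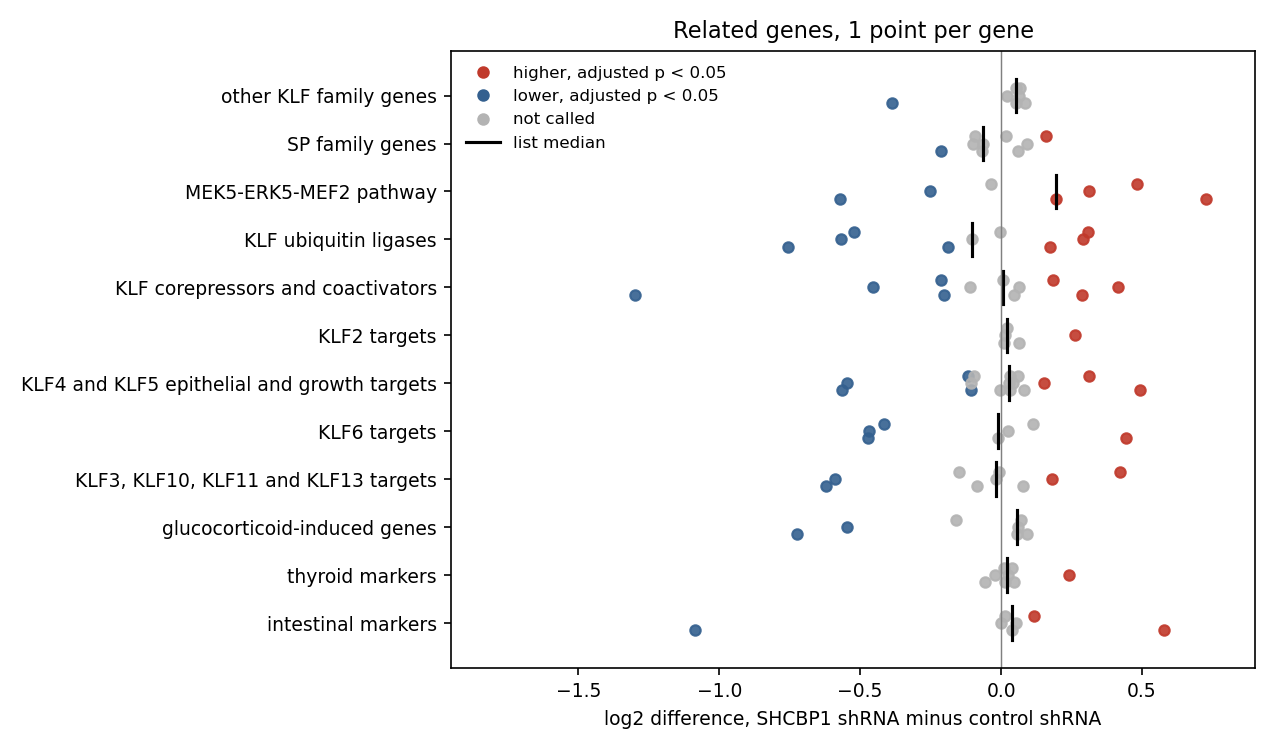
Log2 difference (SHCBP1 shRNA minus control shRNA, horizontal axis) of each gene of the 12 related lists (rows), coloured by limma's call, with the list median as a black line. Most lists hold called genes on both sides of 0, and CTBP2 lies furthest to the left at -1.30.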

How the data were processed

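RNA was hybridised to 6 Affymetrix PrimeView arrays, with groups and replicates taken from the titles. The deposited log2 values are the output of RMA, which corrects background, quantile-normalizes arrays and summarises probes, run by the authors per the submitters' processing notes. The log base is not stated and was taken as that of RMA. Every probe set has a median of 0 over its 6 values, so the table was centred before deposit. No brightness is left, so no filter on dim probe sets was possible. A shift common to all transcripts would be removed by quantile normalization.

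Probe sets of each gene were averaged, and differences were tested with limma 3.58.1 in R 4.3.3 (lmFit and eBayes, unpaired, two-sided, Benjamini-Hochberg over 18132 genes or 44988 probe sets, threshold 0.05). Probe sets with several symbols (1832) or none here (2473) were not used. Errors are limma's moderated standard errors. A simulation with 18132 genes altered only 50 genes at each size of 0.25, 0.5, 1 and 2 log2. The test found 50%, 84% and 98% of the genes altered by 0.25, 0.5 and 1 log2. It made 180 calls, of which 14 fell on unaltered genes. The deposited arrays gave 7440 called genes, and the Benjamini-Hochberg cutoff varies with how many genes change. The simulated rates are therefore not the recovery or error rates of the comparison reported here. Arrays of one group differed from each other by an SD of 0.105 to 0.111 over genes and arrays of different groups by 0.302 to 0.309, so no array repeats another.

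Members and lists were chosen with earlier results of these data known. The text names all 10 genes with their probe sets, and up to 3 called genes per list with the largest differences. List genes named beyond these were added after their values were seen. Among the named list genes, MAPK7, FBXO32, HDAC3, CCR7, KRT19, ODC1, TGFB1, FOXE1, KRT20, CDX2 and GUCY2C have 1 probe set each. The alternatives were repeated quantile normalization, median centring, spike-in scaling, array weights, robust moderation, the replicate number as a block, plain _at probe sets, probe set medians and leaving out each array. Promoters and gene names come from RefSeq tables (GRCh38.p14).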

Additional observations from a re-analysis of the deposited data

How the results depend on the processing

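The calls of all 8 KLF genes kept their direction and stayed past the threshold under repeated quantile normalization, median centring, array weights, robust moderation, and without any single array. Poly-A spike-in scaling left 9 KLF genes called, 0 higher and 9 lower, with KLF2 (-0.50) and KLF7 (-0.37) newly called, KLF13 turned to lower (-0.19) and KLF6 no longer called (0.019). Of the KLF probe sets 2 were then called higher and 27 lower, and of all genes 16709 were called, 441 higher and 16268 lower. By construction this scaling lowers every gene by 0.43. Among the other named genes it turned SP7 (-0.27), HDAC3 (-0.019), CCR7 (-0.17), SMAD7 (-0.013), FOXE1 (-0.19) and CDX2 (-0.32). With only plain _at probe sets 5 of the 10 genes were still measured, 1 was called (1 higher and 0 lower), KLF3 (-0.12) and KLF9 (-0.15) were not, and KLF7 stood at -0.083. KLF4, KLF5, KLF6, KLF10 and KLF11 have no plain _at probe set, so their calls were not put to this alternative. Fewer probe sets were tested then: 6 KLF probe sets were called, 3 higher and 3 lower, and 1882 genes, 984 higher and 898 lower. With the median of the probe sets KLF3 was not called (-0.13). Leaving out an array gave 18 to 21 called KLF probe sets and 6655 to 6840 called genes. With the replicate block 8 KLF genes and 21 KLF probe sets were called, and no call of a KLF gene changed, while the KLF7 probe set on AK000969.1 was then called higher (0.22, limma adjusted p = 0.0391). Same-numbered samples did not deviate together (correlations of 0.018, -0.046 and 0.067), so the numbers were not taken as pairs.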
